A study of Rattus norvegicus with 6 samples.

Results

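Rat rheumatoid arthritis fibroblast-like synoviocytes (RA-FLS), the cells that line the joint and proliferate in this disease, were compared by RNA-seq with and without emodin (EMO), a plant anthraquinone. The genes described here are translation elongation factors, the kinase gene Eef2k, and other mRNAs of the TOP class outside the listed ribosomal protein genes. They are 10 of the 34156 genes in the count table, namely Eef1a1, Eef1b2, Eef1d, Eef1g, Eef2, Eef2k, Tpt1, Npm1, Pabpc1 and Rack1. They were named by symbol, and the set was chosen by measured values of these same libraries, because Tpt1, Eef1a1 and Eef2 were higher with EMO in the one comparison available. Their levels and fold changes are therefore a description, and no p-value is given for them. The symbol Rack1 stands on 2 rows, of which the one on chromosome 12 held at most 1 count in any library, and the other row was used.

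All 6 libraries came from wild-type RA-FLS given TNF-α, a cytokine of the inflamed joint, at 10 ng/mL. In the TNF-α group (n = 3) nothing else was added, and in the TNF-α+EMO group (n = 3) the cells also received EMO at 80 μmol/L. There was no library without TNF-α, so each comparison is of EMO on top of TNF-α. The sample labels give day 5 and the methods of the study give 24 h of incubation, and which of these holds for the sequenced cells cannot be told from them. The cells were a purchased line, and the methods call the 3 libraries per group biological replicates. The labels do not say that they were separate cultures, so the spread between them may in part be technical.

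In eukaryotes eEF1A carries aminoacyl-tRNA to the ribosome and is recharged with GTP by the eEF1B complex, in which Eef1b2 and Eef1d encode the exchange subunits and Eef1g a scaffold subunit. eEF2 then moves the ribosome along the mRNA, and eEF2 kinase (Eef2k), which depends on calcium and calmodulin, phosphorylates eEF2 and slows it. The mRNAs of the elongation factors and ribosomal proteins carry a terminal oligopyrimidine (TOP) tract, a C at the cap followed by a run of pyrimidines, through which mTORC1 and LARP1 control their translation and stability. Tpt1, Pabpc1, Npm1 and Rack1 are also counted among TOP mRNAs, whereas Eef2k is listed here as the kinase of eEF2. Sequencing of poly(A) RNA measures the amount of these mRNAs, not their translation.

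The libraries held 16813322 to 16982023 counts in the TNF-α group and 17185322 to 17794455 in the TNF-α+EMO group. Between 13342 and 13365 genes reached 10 counts with TNF-α alone, and between 12566 and 12662 did with EMO. Mitochondrial mRNAs took 3.33 to 3.55% of the counts in the TNF-α group and 0.191 to 0.214% with EMO. Of 8 fibroblast-like synoviocyte markers that could be tested, 7 were lower and 1, Cd55, was higher with EMO. At the same threshold, an adjusted p under 0.05, 41.4% of all genes tested were lower and 39.4% were higher. The summed level of the 11 markers in the table was 6852 to 7184 TPM (a level scaled by gene length and library total) against 1568 to 1725. With EMO this sum was nearly all Vim, at a mean of 1557 TPM, so it understates the fall of other markers. Log2 fold changes were -8.76 for Col3a1, -8.02 for Vcam1, -6.59 for Pdgfra, -6.20 for Cdh11 and -4.91 for Col1a1. Vim was at -0.92 and Cd55 at 2.31. Pdpn was at or below 3 counts in every library, and Thy1, Prg4 and Fap were so in the TNF-α+EMO group. The leukocyte markers Ptprc and Adgre1, the endothelial Kdr and the epithelial Epcam and Krt18 were at or below 3 counts in every library of both groups. Summed over their lists, the 5 leukocyte markers stood at 85.8 to 90.2 TPM without and 45.0 to 45.6 TPM with EMO, the 2 endothelial markers at 0.0832 to 0.304 and 0.0691 to 0.194 TPM, and the 4 epithelial markers, nearly all Krt8, at 589.6 to 635 and 93.2 to 101 TPM. Of the 2 leukocyte markers that could be tested, Cd14 was lower (log2 fold change -1.10) and Cd68 was higher (0.75). These values moved with the same groups as the genes below, and their part in the results was not tested. In bulk RNA, fewer cells of a type and less RNA per cell cannot be told apart.

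The stretches around the transcription starts are shown because the TOP tract defines the class. The set of RefSeq promoters used, on GRCr8, held the start of 8 of the 10 genes, and Eef1d and Pabpc1 were not matched in it. A tract was taken as a C followed by at least 4 pyrimidines (C or T), searched only on the strand that reads as the mRNA, within 50 bases on either side of the annotated start. Each line is the 30-base run with the most bases in such tracts, 5′ to 3′ along the gene, with the tracts in capitals, and a tract may continue beyond the run.
Tpt1, chr15:57566114-57566143, plus strand: CCTTTTCCgcccgCTCCCCCCTCCCCCCga
Eef1a1, chr8:88225055-88225084, minus strand: tcgccttggacgttCTTTTTCgcaacgggt
Eef1b2, chr9:72074076-72074105, plus strand: TTTCCggccggtcccggCCCTTTTTCTCCC
Eef1g, chr1:215289795-215289824, plus strand: CCCCCTTTCTCTgcggaatcaccatggcgg
Eef2, chr7:9189206-9189235, minus strand: catcgtcggcgcgCTTCCCTgttcaCCTCT
Npm1, chr10:18255727-18255756, minus strand: ccgcgtCCTTTCCTTggcgtgattccgtcc
Rack1, chr10:33670559-33670588, plus strand: tccggcggaggccgCTCTTTCTTTTTCTCC
Eef2k, chr1:184824399-184824428, plus strand: CCTCCggctccaaccccagccacaacagcc

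A tract was present in 8 of 8 of these genes, in 98.4% of 64 ribosomal protein promoters and in 76.6% of all 33469 promoters, so presence alone was common. The longest tract had a median of 10.5 bases in these genes, 11.5 in the ribosomal protein promoters and 6 in all promoters. The longest was in Rack1, of 16 bases, a length reached by 1.96% of all promoters. Tpt1 and Eef1b2 each had a tract of 15 bases, reached by 2.52%, and Eef1g 12 bases, reached by 6.59%. Npm1 had 9 bases and Eef1a1 and Eef2 had 7 each, and 40.2% of all promoters had a tract of at least 7. Eef2k had the shortest, of 5 bases, which is the minimum of the search. In none of the 8 did a tract begin exactly at the annotated start, against 10.9% of the ribosomal protein promoters and 1.26% of all. The tract of Eef1a1 began 1 base before it. Counted from that start, the longest tract began at -17 in Tpt1, -20 in Eef1g, -9 in Npm1 and -21 in Eef2k. In Eef1b2, Eef2 and Rack1 it began at 3, 17 and 24. A TOP tract begins at the cap, so these lengths are not measured lengths of TOP tracts. Annotated starts were not checked against these reads, and a match is a run of letters, not a measured start.

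With EMO, 9 of the 10 genes were higher and Eef2k was lower, and in each of the 10 the 3 libraries of one group did not overlap with those of the other. Among all 13614 genes tested, 40.3% were higher and 42.5% were lower without overlap, so separation of this kind was common in these data. At an adjusted p under 0.05, 80.9% of all genes tested were called, 39.4% higher and 41.4% lower. With an absolute log2 fold change over 1 in addition, 47.3% of all genes were called, 19.5% higher and 27.8% lower. In the set, 6 genes were higher by a log2 fold change over 1 (Tpt1, Npm1, Eef1b2, Rack1, Eef1d and Eef2) and 1, Eef2k, was lower by more than 1. The set was chosen on this same comparison, so these counts are a description and not a test. Eef2, at 1.03, lay just inside this limit, and Eef1a1, at 0.99, just outside. In log2 fold change the 10 genes had a median of 1.06, against -0.01 over all genes tested. Of the 100 genes with the most counts, which had a median log2 fold change of 0.72 and of which 70 were positive, 7 were from this set.

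**Figure D1:**
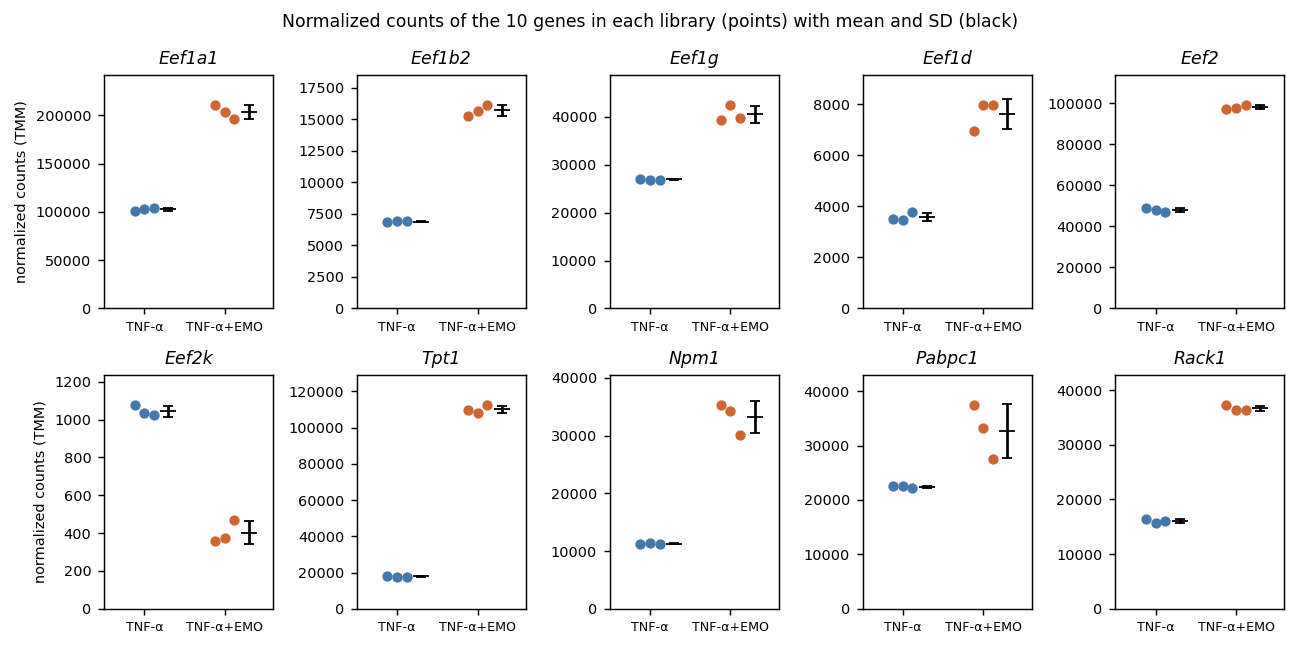
Normalized counts (TMM, linear axis from 0, own scale per panel) of each of the 10 genes, with 1 point per library, TNF-α in blue and TNF-α+EMO in orange, and the mean with SD (n = 3) in black. The gap is widest as a fold in Tpt1, from means of 17822 to 110153, and only in Eef2k do the EMO libraries lie below.

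Eef1a1 (chromosome 8, 85838869 to 85840818, minus strand, Rnor_6.0) encodes the aminoacyl-tRNA carrier. Its normalized counts were 101177, 102795 and 104082 with TNF-α alone and 210730, 203305 and 195903 with TNF-α+EMO. All EMO values lay far above all others, and the spread within each group was narrow, at 102685 ± 1455 and 203313 ± 7414 (SD, n = 3 each). The log2 fold change was 0.99 (standard error 0.05), or 1.98-fold. The gene took 0.621% of all counts without and 1.14% with EMO. It had the most counts of any gene in each EMO library, while in the TNF-α libraries the mitochondrial Mt-co1 had more. In TNF-α libraries 1 and 2 Col1a1 also had more, at 121730 and 116899 counts against 103150 and 105414. With EMO, Col1a1 was at 3554 to 3672 counts.

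Among the eEF1B subunits, Eef1b2 (chromosome 9, 69953440 to 69956160, plus strand) had 6852, 6900 and 6928 normalized counts in the TNF-α group and 15305, 15690 and 16140 with EMO. This was a rise from 6894 ± 38.4 to 15712 ± 418, a log2 fold change of 1.19 (standard error 0.05). Eef1d (chromosome 7, 116928265 to 116936674, minus strand), the other exchange subunit, was less abundant. It had 3507, 3479 and 3777 normalized counts without EMO and 6935, 7957 and 7965 with it, a log2 fold change of 1.09 (standard error 0.07). The first EMO library was the lowest of its group, yet well above every TNF-α library. The scaffold subunit Eef1g (chromosome 1, 225163391 to 225173995, plus strand) was the most abundant of the 3 and moved least. Its values were 27061, 26845 and 26874 without EMO and 39327, 42458 and 39752 with it, a log2 fold change of 0.59 (standard error 0.05).

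The subunits therefore did not keep the same proportion of mRNA. Per length, the ratio of Eef1b2 to Eef1g TPM was 0.347, 0.353 and 0.354 with TNF-α alone and 0.534, 0.507 and 0.557 with EMO, with no overlap. The ratio of Eef1d to Eef1g was also higher in each EMO library, at 0.0922 ± 0.0044 against 0.130 ± 0.0083. Between the exchange subunits, in contrast, the ratio of Eef1b2 to Eef1d was 3.64 to 3.93 without EMO and 3.91 to 4.38 with it, so that the groups overlapped.

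Eef2 (chromosome 7, 11401501 to 11406771, minus strand), the translocation factor, had 48749, 47901 and 46848 normalized counts with TNF-α alone and 97380, 97489 and 99133 with TNF-α+EMO. It was the most even gene of the set with EMO, at 47832 ± 952 and 98001 ± 982, a log2 fold change of 1.03 (standard error 0.05) or 2.05-fold. Eef1a1 and Eef2 moved by a like amount, with a TPM ratio of 4.36 to 4.67 in the TNF-α group and 4.15 to 4.54 with EMO, which overlapped.

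The kinase of eEF2 moved the other way. Eef2k (chromosome 1, 190780236 to 190842324, plus strand) had 1075, 1033 and 1023 normalized counts without EMO and 359, 372 and 471 with it. The third EMO library was the highest of its group, but still lay below the lowest TNF-α library, and the log2 fold change was -1.38 (standard error 0.11), or 2.60-fold lower. In TPM, which divides by gene length, the ratio of Eef2 to its kinase was 79.4, 81.2 and 80.2 with TNF-α alone and 475, 458 and 369 with EMO. Both mRNAs contributed to this difference, the substrate being higher and the kinase lower.

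Tpt1 (chromosome 15, 57891680 to 57894504, plus strand) encodes the translationally controlled tumour protein, a small calcium-binding protein known for its growth and anti-apoptotic roles and as a TOP mRNA. It had 17995, 17679 and 17793 normalized counts with TNF-α alone and 109879, 108276 and 112305 with TNF-α+EMO. Its means were 17822 ± 160.2 and 110153 ± 2028, a log2 fold change of 2.63 (standard error 0.05) or 6.18-fold, which was the largest of the 10. The gene went from 0.108 to 0.616% of all counts, and from 70th to 4th by count. Relative to Eef1a1 in TPM, Tpt1 was at 0.304 ± 0.0065 without and 0.950 ± 0.048 with EMO.

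Npm1 (chromosome 10, 18080950 to 18090950, minus strand), a nucleolar chaperone of ribosome assembly, came next. Its normalized counts were 11293, 11356 and 11139 in the TNF-α group and 35234, 34279 and 30102 with EMO, a log2 fold change of 1.56 (standard error 0.07). Rack1 (chromosome 10, 34149717 to 34155198, plus strand), a scaffold on the small ribosomal subunit, had 16370, 15729 and 16035 without and 37217, 36297 and 36423 with EMO, a log2 fold change of 1.19 (standard error 0.05). Npm1 was lowest in the third EMO library, and Rack1 was even across all 3.

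Pabpc1 (chromosome 7, 75409581 to 75422268, minus strand), the cytoplasmic poly(A)-binding protein, had a wide spread with EMO. Its values were 22506, 22552 and 22122 with TNF-α alone and 37396, 33249 and 27481 with EMO, or 22393 ± 236 and 32709 ± 4980. The log2 fold change was 0.55 (standard error 0.10), close to that of Eef1g. The EMO libraries varied by 15.2% (coefficient of variation), against a median of 6.89% for genes with a mean of at least 1000 counts in that group. On the TPM scale the groups overlapped, since the third EMO library, at 843 TPM, lay below the TNF-α libraries at 914 to 940 TPM.

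**Figure D2:**
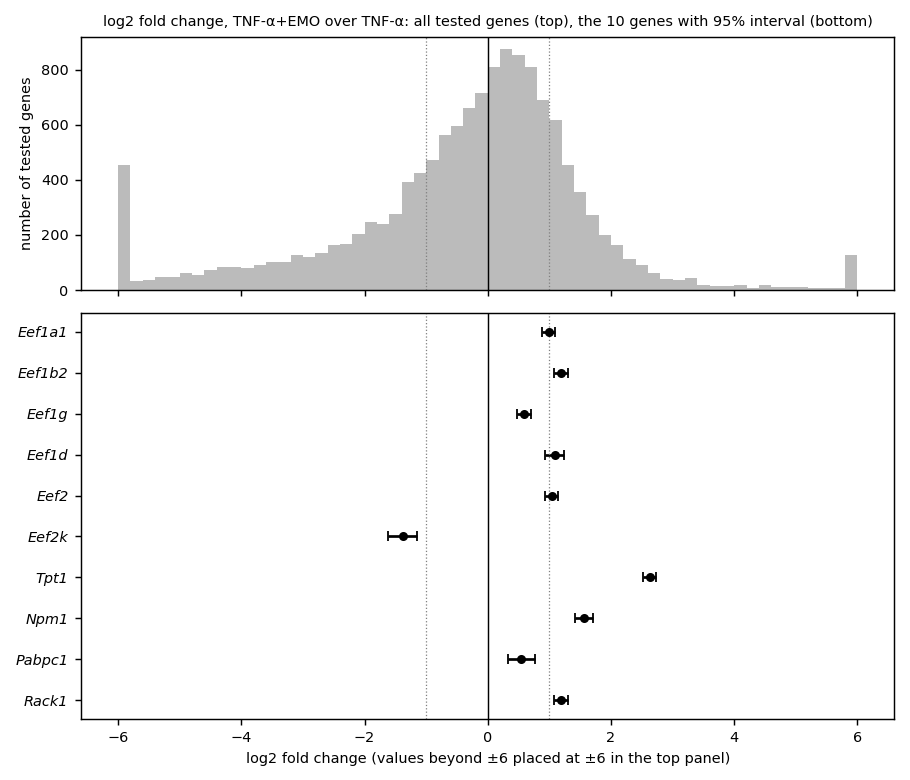
Number of tested genes by log2 fold change of TNF-α+EMO over TNF-α (top, values beyond 6 in either direction placed at the ends), and that of each of the 10 genes as a point with its 95% confidence interval (bottom), with dotted lines at a log2 fold change of 1 in either direction. The intervals give the uncertainty of each estimated fold change in the fit. The set was chosen on this comparison, so they are a description and not a test. Tpt1 stands apart at 2.63, the other higher genes lie between 0.55 and 1.56, and Eef2k is at -1.38.

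Levels can be compared between genes only per length. On the TPM scale, Eef1a1 led in the TNF-α group at 8470 ± 184 (SD, n = 3), followed by Tpt1 at 2575, Eef1g at 2211, Eef2 at 1878, Pabpc1 at 924, Rack1 at 806, Npm1 at 805, Eef1b2 at 777, Eef1d at 204 and Eef2k at 23.4. In this order Rack1 and Npm1 could not be told apart, as their libraries overlapped. The order rests on the deposited gene lengths, which were not checked against the transcripts present. For Rack1 the length was 2280 bases, against 1025 for the other row of that symbol. With EMO, Eef1a1 stood at 13089 ± 1017 and Tpt1 at 12404, and these libraries overlapped, at 12000 to 14013 and 12049 to 12798. Eef2 followed at 3000.4, Eef1g at 2595, Npm1 at 1855, Rack1 at 1436, Eef1b2 at 1379, Pabpc1 at 1057, Eef1d at 337 and Eef2k at 6.98. Rack1 and Eef1b2 overlapped here. The distance from Eef1a1 to Tpt1 was thus 3.29-fold in the TNF-α group and within the spread of the libraries with EMO. From without to with EMO, Pabpc1 moved down and Npm1 up in this order, and Eef2 and Eef1g exchanged places without overlap in either group.

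**Figure D3:**
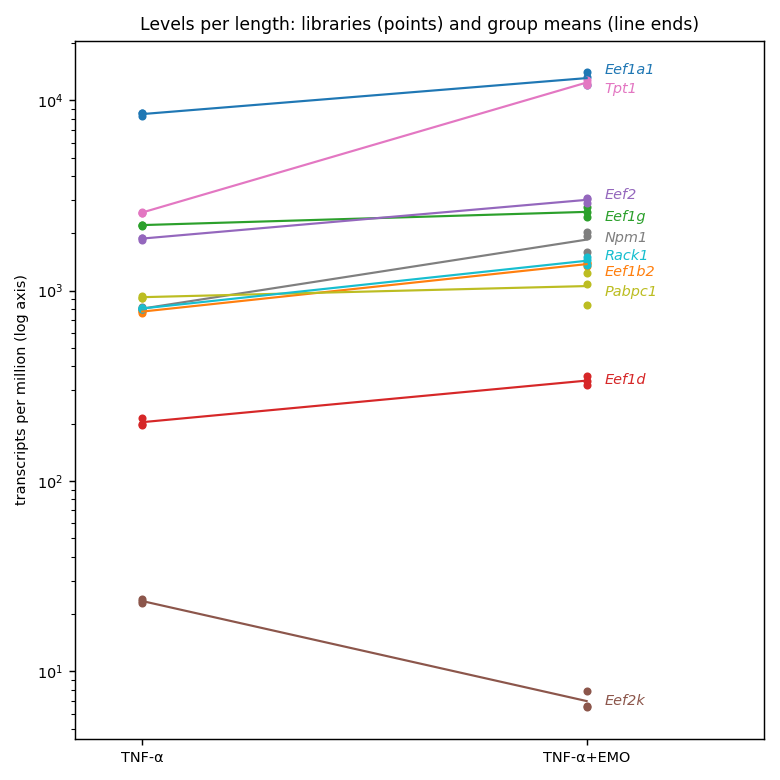
Level of the 10 genes in TPM on a log axis, with 1 point per library and a line joining the means of the TNF-α and TNF-α+EMO groups. Tpt1 rises most steeply and with EMO its points, at 12049 to 12798, fall among those of Eef1a1.

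The 10 genes together took 1.54 to 1.57% of the counts with TNF-α alone and 3.12 to 3.33% with EMO. The cytosolic ribosomal proteins, the core of the TOP class, took 3.59 to 3.79% and 7.02 to 7.82%. Of 73 ribosomal protein genes tested, 67 were higher, 1 was lower and 5 did not pass the threshold, with a median log2 fold change of 1.06. Over all genes tested, 39.4% were higher and 41.4% were lower. Rplp1, an acidic protein of the ribosomal stalk, rose from 10361 ± 275 to 44468 ± 2446 normalized counts (log2 fold change 2.10, standard error 0.06, adjusted p = 1.1e-10 by edgeR). Rpl3, a large subunit protein, was the one that was lower, by -0.20 (standard error 0.05, adjusted p = 0.0024).

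Taken over the median ribosomal protein gene of its own library, in log2 TPM, Tpt1 was higher with EMO by 1.72, Npm1 by 0.65, Rack1 by 0.29 and Eef1b2 by 0.28, each without overlap of the groups. Eef1a1 differed by 0.08, Eef2 by 0.13, Eef1d by 0.18 and Pabpc1 by -0.37, and in these the groups overlapped. Eef1g was lower by -0.31 and Eef2k by -2.29, without overlap. Against the ribosomal proteins, then, Tpt1 and Npm1 lay above and Eef1g below, while the groups overlapped for the carrier and the translocase. For these 2 genes the overlap came from TNF-α+EMO library 3 alone. Libraries 1 and 2 with EMO were at 2.89 and 2.77 for Eef1a1, above the highest TNF-α library at 2.68. For Eef2 they were at 0.71 and 0.64, against 0.50. The third EMO library was the lowest of its group in this measure for 9 of the 10 genes, all but Eef2k. That library also had the highest ribosomal protein share, and its part in these values was not tested.

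**Figure D4:**
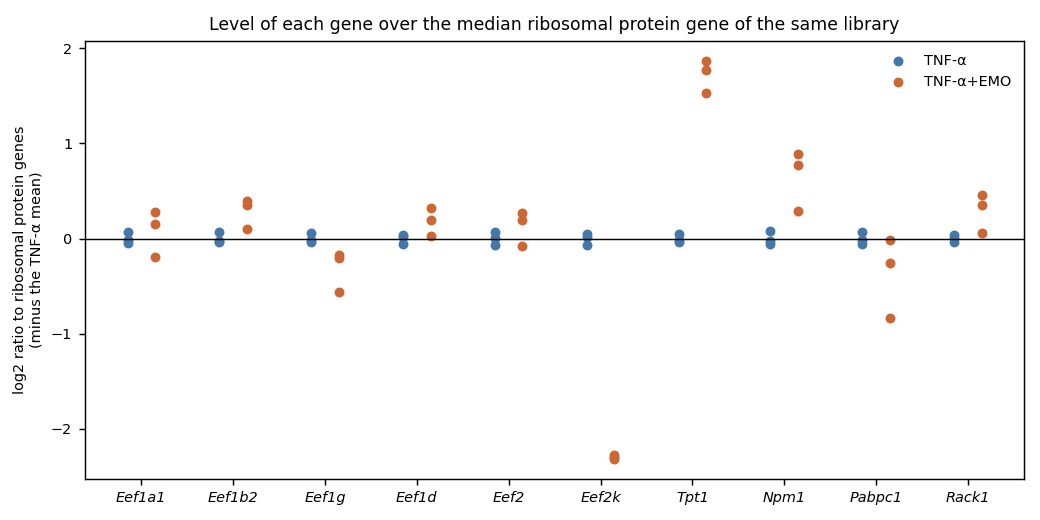
Log2 ratio of the TPM of each of the 10 genes to the median cytosolic ribosomal protein gene of the same library, minus the mean of the TNF-α libraries, with 1 point per library. The groups lie apart for Tpt1, Npm1, Rack1, Eef1b2, Eef1g and Eef2k and overlap for Eef1a1, Eef1d, Eef2 and Pabpc1.

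Genes with neighbouring functions were taken from lists written for this purpose, and each count below is to be read against the 39.4% of all genes that were higher and 41.4% that were lower. Among 12 tested factors of elongation, termination and recycling, 8 were higher, 2 were lower and 2 did not pass. Pelo and Hbs1l, which together rescue stalled ribosomes, both rose. Pelo went from 1637 ± 29.8 to 4730 ± 441 normalized counts (log2 fold change 1.53, standard error 0.07, adjusted p = 6.9e-09). Hbs1l went from 1364 ± 45.1 to 5800 ± 440 (2.09, standard error 0.07, adjusted p = 4.3e-10). The GTP-binding proteins Gtpbp2 and Gtpbp1, related to Hbs1l, moved in opposite directions, by 2.98 (standard error 0.08, adjusted p = 1.1e-10) and -0.35 (standard error 0.08, adjusted p = 0.0019). Eif5a, which helps the ribosome through difficult peptide bonds, rose from 11833 ± 499 to 19564 ± 2049.9 (0.73, standard error 0.08, adjusted p = 5.0e-06). Eef1e1, an auxiliary protein of the tRNA synthetase complex, rose by 0.81 (standard error 0.09, adjusted p = 7.1e-06).

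Eef1a2, the second eEF1A gene, which is known from muscle and nerve, was near absent. It had 0.981, 1.95 and 0 normalized counts in the TNF-α libraries, at or under a floor of 3 counts, and 22.7, 23.5 and 47.9 with EMO. No fold is given against a group at the floor.

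Of 14 tested enzymes that modify eEF1A, eEF2 or eIF5A, 11 were higher, 0 were lower and 3 did not pass. The largest rises were in low-count genes. Eef2kmt, a lysine methyltransferase of eEF2, had 58.9, 38.0 and 56.5 normalized counts without and 340.4, 338 and 390.1 with EMO (log2 fold change 2.80, standard error 0.18, adjusted p = 6.3e-08). Dph5, an enzyme that makes the diphthamide of eEF2, went from 155 ± 20.2 to 1058 ± 23.7 (2.77, standard error 0.10, adjusted p = 9.1e-10). Eef1akmt4, a lysine methyltransferase of eEF1A, rose by 2.15 (standard error 0.12, adjusted p = 1.9e-08).

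The list of genes that control TOP mRNAs and eEF2 kinase split. Of 19 tested, 9 were higher, 7 were lower and 3 did not pass, with a median log2 fold change of 0.02. Calm2, a gene of calmodulin, on which eEF2 kinase depends, fell from 3016 ± 82.9 to 772 ± 67.6 (-1.97, standard error 0.08, adjusted p = 1.0e-09). Mtor, the kinase of mTORC1, was lower by -0.83 (standard error 0.07, adjusted p = 7.2e-07), and Rps6kb1, a kinase downstream of it that phosphorylates eEF2 kinase, by -0.61 (standard error 0.08, adjusted p = 1.9e-05). Its paralog Rps6kb2, named here after its values were seen, went the other way, from 903 ± 83.6 to 2391 ± 264 (1.41, standard error 0.10, adjusted p = 1.3e-07). The inhibitors rose in part: Eif4ebp1 went from 896 ± 50.4 to 5797 ± 964 (2.69, standard error 0.12, adjusted p = 1.6e-08), and Akt1s1 rose by 1.89 (standard error 0.07, adjusted p = 1.1e-09), while Eif4ebp2 was lower by -0.66 (standard error 0.09, adjusted p = 2.8e-05). Larp1, which binds the TOP tract, had 2264, 2213 and 2055 normalized counts without and 2766, 2570 and 2586 with EMO, a small rise of 0.28 (standard error 0.06, adjusted p = 0.0019), and its adjusted p was above 0.05 without TNF-α library 3. Its paralog Larp1b, far less abundant, rose by 1.71 (standard error 0.17, adjusted p = 3.8e-06).

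TOP mRNAs outside translation elongation and the ribosome did not move as one. Of 8 tested, 5 were higher and 3 were lower, with a median log2 fold change of 0.45. Eif3f, a subunit of an initiation factor, rose by 1.22 (standard error 0.07, adjusted p = 4.2e-08), Naca, a chaperone at the ribosome exit, by 1.09 (standard error 0.05, adjusted p = 9.3e-09), and Eif2s3, a subunit of eIF2, by 0.96 (standard error 0.07, adjusted p = 2.4e-07). Eif4b, a cofactor of the initiation helicase, fell from 8790 ± 156 to 4690 ± 53.6 (-0.91, standard error 0.05, adjusted p = 3.3e-08). Vim, the intermediate filament gene that is also in the synoviocyte marker list above, fell from 61464 ± 1350.3 to 32387 ± 1299 (-0.92, standard error 0.05, adjusted p = 2.5e-08). Nap1l1, a histone chaperone, was lower by -0.43 (standard error 0.09, adjusted p = 0.0010).

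Among 5 tested poly(A)-binding proteins and partners of Pabpc1, 2 were higher, 2 were lower and 1 did not pass. Pabpc4, a paralog of Pabpc1, rose from 4683 ± 170 to 7225 ± 78.2 (0.63, standard error 0.06, adjusted p = 1.2e-06). Paip2 (0.23, adjusted p = 0.0034), Paip2b (-0.45, adjusted p = 0.024) and Pabpn1 (-0.37, adjusted p = 0.038) passed the threshold here and lost it under some of the alternatives. The nucleolar partners of Npm1 rose with it, Ncl from 10426 ± 416 to 25984 ± 1141 (1.32, standard error 0.06, adjusted p = 3.5e-09) and Npm3 by 0.90 (standard error 0.09, adjusted p = 3.1e-06). Of the 5 mitochondrial elongation factors, which are nuclear genes, 4 were higher and 1 did not pass, with Tsfm at 1.28 (standard error 0.17, adjusted p = 2.8e-05), Guf1 at 0.67 and Tufm at 0.34.

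**Figure D5:**
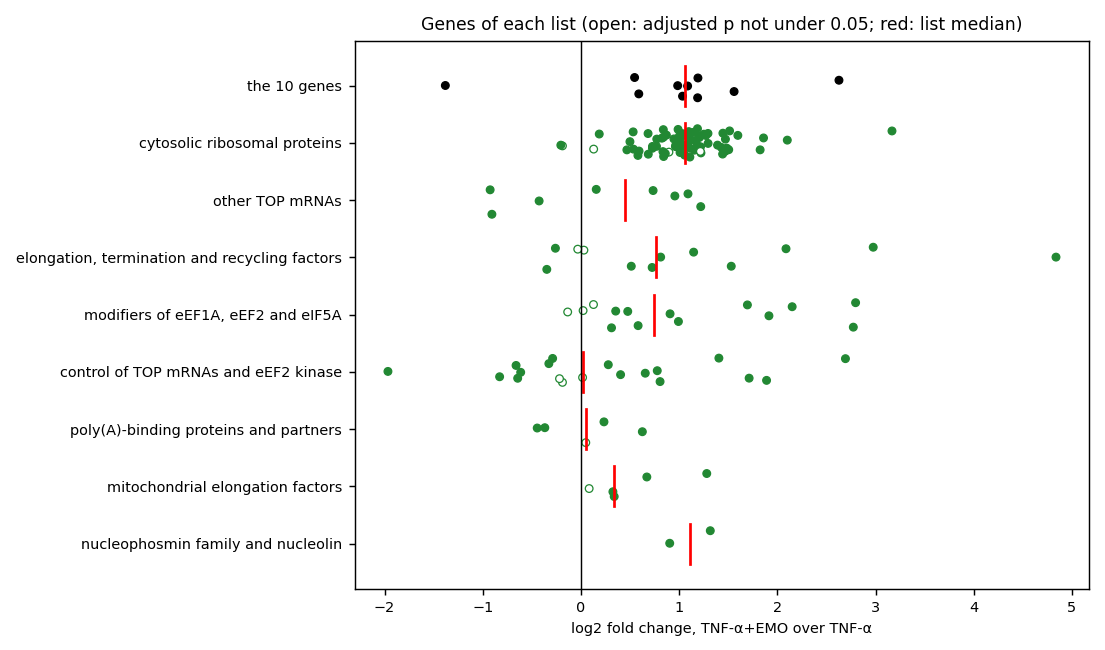
Log2 fold change of TNF-α+EMO over TNF-α, with 1 point per tested gene of the 10 genes (black) and of the 8 lists (green, open where the adjusted p was not under 0.05), and the list median as a red line; the vertical scatter within a row has no meaning. The ribosomal proteins and the 10 genes share a median of 1.06, the list of genes that control TOP mRNAs centres on 0.02, and the point furthest right is Eef1a2, whose TNF-α libraries are at the floor.

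Reads of near-identical copies can be split between rows, and how the counting treated them is not given in the sources used here. A processed pseudogene of Tpt1 on chromosome 1, LOC100360791, held 735 to 816 counts without and 2722 to 3877 with EMO, or 4.23% and 3.16% of Tpt1. The 2 Eef1a1-like genes on chromosome X, LOC100911991 and LOC100360413, held 0.567% and 0.342% of the counts of Eef1a1 without EMO and 0.691% and 0.453% with it. A row without a symbol for each of Eef1g and Npm1 held at most 74 and 29 counts. With such copies added, the log2 fold change of Tpt1 was 2.61 and that of Eef1a1 0.99. The small nucleolar and other small RNA genes that overlap Tpt1, Eef1b2, Eef2 and Rack1 on the same strand held at most 27 counts.

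The genes most like Tpt1 in pattern, by the distance between log2 normalized counts centred over the 6 libraries and among 4141 genes with a mean of at least 1000 counts, were Serp1 at a distance of 0.057, Lonp1 at 0.109 and Ubxn4 at 0.112. The median distance from Tpt1 was 2.87. Nearest to Eef1a1 were Stx12 (0.055), Slc39a6 (0.061) and Yipf4 (0.063), against a median of 1.08, and nearest to Eef2 were Hps1 (0.061), Slc25a39 (0.065) and Cmas (0.070), against a median of 1.11. None of the 9 is another gene of the set.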

How the data were processed

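Poly(A)-selected paired-end RNA-seq of 3 TNF-α and 3 TNF-α+EMO libraries was analysed, grouped as the sample labels give. According to the methods and the submitters' processing notes, reads were checked with FastQC, trimmed with Trimmomatic and aligned with HISAT2 to Rnor_6.0. The counting program, annotation version and strand setting are not given in the sources used here. The authors deposited raw counts per gene with gene lengths, and FPKM values, which scale counts by length and mapped reads and were used for no result. The table of comparisons the authors deposited holds, for each gene, group means as a score (size-factor scaled counts), the log2 fold change and the raw and adjusted p-value, and none of them was used.

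Genes that reached 10 counts in 3 or more libraries entered the test (13614). edgeR 4.0.16 (R 4.3.3) was used with TMM scaling and its robust quasi-likelihood F test, and p-values were adjusted over the 13614 genes (Benjamini-Hochberg, threshold 0.05). Normalized counts are counts scaled to the mean effective library size, and a standard error is the log2 fold change divided by the square root of F. TPM was computed from counts and the deposited gene lengths. Logs of TMM counts used a pseudocount of 0.5 for the distances between genes. Rows named "-" (1306 rows, 0.741 to 0.946% of counts per library) stayed in the library totals and the fit, and no result is given for them except as copies. Where a listed symbol stood on several rows, the row with the most counts was used. The genes and lists were chosen with earlier results of these data known. The genes named are the 10 of the set, from each list the up to 3 highest and 3 lowest log2 fold changes among called genes whose mean count reached 100 and whose groups did not overlap, 7 genes fixed by name (Eef1a2, Eef1e1, Eif5a, Larp1, Rps6kb1, Pabpc4 and Ncl), and the 3 genes nearest in pattern to Tpt1, Eef1a1 and Eef2. Of the list members, N6amt2, Larp4, Calm3, Eif3e, Eif3h, Gas5, Rps14, Rps19, Rps26 and Rpl22 were not analysed here. Certain ribosomal protein genes named by the rule are not reported here.

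An exact permutation test of 3 against 3 libraries cannot go below 0.1, so the p-values rest on the spread that edgeR shares across genes (biological coefficient of variation 0.121). The alternatives were DESeq2 1.42.0, other scalings and filters, a stricter threshold, the replicate block, copies added and leaving out each library. The fits were tested on simulated counts of 13390 genes, of which 200 were changed, as many up as down. There edgeR recovered 97 of 100 genes at an absolute log2 change of 1 and 100 of 100 at 2. Of its 202 calls, 5 were false. Far fewer genes changed in the simulation than in these data, so scaling where most genes change was not tested. No genome of the files' build was used, and the promoter sequences come from RefSeq on GRCr8, whose coordinates differ from those of the counts.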

Additional observations from a re-analysis of the deposited data

How the results depend on the processing

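All 10 genes of the set kept their direction under every alternative run. Of 654 values of single genes under an alternative, 598 stayed within the spread or kept their call. Another 42 moved by more, 14 lost the threshold and 0 reversed. The 42 were all of the 10 genes, which were judged by spread, while the other genes were judged only by their call. Tpt1, Eef2 and Rack1 each stayed within the spread in 7 of 14 alternatives. The losses were of Larp1, Paip2, Paip2b and Pabpn1. For the 10 genes, the median log2 fold change, 1.06, was 0.95 with scaling by total counts and 1.02 with the upper quartile, and ranged from 0.98 to 1.12 when each library was left out in turn. Scaling by total counts moved the median of all genes by -0.11 (log2). The number of the 10 genes higher with a log2 fold change over 1 depended on such choices. It was 6 here, 4 with total counts and without TNF-α library 1 or 2 (Eef1d and Eef2 fell below), 5 with the upper quartile and without TNF-α library 3 (Eef2 fell below), and 7 without TNF-α+EMO library 2 or 3, where Eef1a1 was at 1.01 and 1.03. With a library left out, the filter still asked for 3 libraries, and scaling was redone on the genes left. Without TNF-α library 1, 2 or 3, 12685, 12667 and 12666 genes were tested, and log2 fold changes shifted by -0.070, -0.074 and -0.078. Without TNF-α+EMO library 1, 2 or 3 the shifts were 0.023, 0.026 and 0.024. These changes were alike within a group and do not single out a replicate. Tpt1 ranged from 2.51 to 2.66. Levels in TPM were not among the alternatives, and on that scale the rises were smaller and the fall of Eef2k larger. Eef1a1 went from a mean of 8470 to 13089 TPM, Eef2 from 1878 to 3000 and Tpt1 from 2575 to 12404. Eef2k went from 23.4 to 6.98 TPM. Libraries of the same number did not deviate together (correlations 0.02, -0.01 and 0.07), so the replicate numbers were not taken as pairs, and the replicate block gave 5266 genes higher and 5540 lower and a median of 1.06 for the set. TNF-α+EMO library 3 stood furthest from the others of its group.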
